A study of Homo sapiens with 6 samples.

Results

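The peaks described here are the β-catenin peaks that lay upstream of their assigned gene, more than 50 kb from its transcription start site (TSS). They were taken from the 3 deposited peak lists by 2 columns, the position relative to the assigned gene and the distance to its TSS. Beyond the authors' peak calling, neither signal nor overlap was part of this rule. The members were chosen with earlier results of these data known. Of 3126 listed peaks, 370 met the rule: 18 of 260 (RPMI), 101 of 1053 (CHIR) and 251 of 1813 (CHIR+SB). The lists come from chromatin immunoprecipitation and sequencing (ChIP-seq) of β-catenin in SA121, a human embryonic stem cell line grown in DEF-CS medium. The mock-treated cells were kept in RPMI-1640 medium, the second group received CHIR99021 (CHIR), and the third received CHIR99021 with SB431542 (CHIR+SB), with 6 h of treatment. CHIR99021 inhibits GSK3, and SB431542 inhibits the activin, Nodal and TGFβ type I receptors. Each condition had 1 β-catenin library and 1 goat IgG library (6 samples), and DNA of 3 parallel immunoprecipitations was pooled before each library was made. No condition therefore has a replicate, and no p-value is given between conditions. Intervals cover counting error only, except that of the median signal ratio of the far upstream pairs, which covers the spread between pairs. Expression was not measured, so marker genes could not be used to check the labelled cell type.

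β-Catenin does not bind DNA by itself. When Wnt signalling or a GSK3 inhibitor spares it from degradation, it enters the nucleus and acts as a co-activator on TCF and LEF proteins, which bind at promoters and at distal enhancers. A distal element can act over long distances and can skip the nearest gene, so the gene named with a peak below is the authors' assignment by position and not a shown target.

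Far upstream peaks made up 6.92% of the RPMI list (exact 95% binomial interval 4.15 to 10.7), 9.59% of the CHIR list (7.88 to 11.5) and 13.8% of the CHIR+SB list (12.3 to 15.5). The CHIR+SB interval lay above both others, and the RPMI and CHIR intervals overlapped. Other classes rose in the same order. In RPMI, CHIR and CHIR+SB, downstream peaks with the TSS beyond 50 kb made up 8.85%, 14.7% and 19.8%. Peaks within the gene made up 14.6%, 22.4% and 28.4%. Upstream peaks at 1 to 50 kb (8.85%, 17.5% and 15.5%) had their highest share in CHIR. So did downstream peaks within 50 kb of the TSS (5.77%, 9.21% and 8.05%). Peaks within 1 kb of a TSS fell from 55% to 26.6% and 14.5%. The far upstream shares moved with how far down each list reached: among the 260 peaks of highest signal in each list 18 were members for RPMI, 14 for CHIR (5.38%) and 22 for CHIR+SB (8.46%). With a common minimum signal of 9.61, the lowest in the RPMI list, 73 CHIR members (9.85%) and 92 CHIR+SB members (10.5%) were left. Merged by at least 1 bp, the 370 peaks formed 299 regions, of which 184 were in CHIR+SB alone, 35 in CHIR alone and 13 in RPMI alone. CHIR and CHIR+SB shared 62 regions without RPMI, 4 regions were in all 3 lists, and 1 was in RPMI and CHIR+SB.

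Members reached far from their genes. The median distance to the TSS was 234 kb (RPMI), 152 kb (CHIR) and 169 kb (CHIR+SB). Between 50 and 100 kb lay 4 of the RPMI members, 39 of the CHIR members and 82 of the CHIR+SB members. Beyond 1000 kb lay none of the 18 RPMI members, 4 CHIR members (SPRY2, FLRT2 and TENM2 among them) and 8 CHIR+SB members (TENM2, FLRT2, SPRY2, ADGRB3, SEL1L, CDH8, SLC39A10 and SLIT2). The farthest RPMI peak was 586 kb from INTU, a planar polarity gene needed for cilia. The farthest peak of both other lists was 1647 kb from SPRY2, a feedback inhibitor of receptor tyrosine kinase signalling, with 23 β-catenin reads in CHIR and 19 in CHIR+SB. No member had a listed TSS of another gene closer to it, among the start sites printed in the 3 lists (0 of 18, 0 of 101 and 0 of 251). A nearer gene without a listed peak could not be found this way. These counts are therefore no check on the authors' assignment, which was itself made by position.

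Close to the distance limit, signals varied on both sides of it. In CHIR a peak 49.7 kb from LOC100130539, with 23 reads and a normalized signal of 8.83, lay just outside, and a peak 50.5 kb from MTAP, with 40 reads and a signal of 15.4, just inside. In CHIR+SB the LOC100130539 peak, with 21 reads, again lay outside at 49.7 kb, as did MIR548I4 at 49.6 kb with 33 reads, while MAP9 at 50.2 kb (15 reads) and MTAP at 50.4 kb (20 reads) lay inside. In RPMI the nearest peaks on either side were at 46.2 kb from IKZF2 (15 reads) and 55.3 kb from POU3F2 (19 reads), and the next outside, at 35.9 kb from GLDC, had 31 reads.

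Read counts at the members were low. The lowest, median and highest counts in the β-catenin library were 15, 16 and 20 in RPMI, 20, 30 and 62 in CHIR, and 13, 16 and 52 in CHIR+SB. The median count of the IgG library at the same places was 3 (RPMI), 3 (CHIR) and 6 (CHIR+SB). IgG had no read at 3 CHIR members (LCORL, MIR920 and TENM2) and at 2 CHIR+SB members (RIPK2 and CNTNAP5). These counts come from libraries of unequal depth. By the authors' scaling factors the β-catenin library was 1.67 times as deep in CHIR and 1.14 times as deep in CHIR+SB as in RPMI, and the IgG library 0.976 and 1.75 times as deep. The normalized signal, the count times the factor of its library, had a median of 10.3 at RPMI members against 12.8 over the whole list. It was 11.5 against 11.9 in CHIR, and 9.0 against 9.56 in CHIR+SB. Members thus sat low in the RPMI list, where none was among the top 25% of peaks and 1 was in the upper 50%. RPMI peaks downstream of the gene with the TSS beyond 50 kb sat low too. Their median was also 10.3, with 0 of 23 in the top 25% and 4 in the upper 50%. RPMI peaks within 1 kb of a TSS had a median of 15.4. In CHIR 15 of 101 and in CHIR+SB 43 of 251 members were in the top 25%, and the best ranks were 123 (RPMI), 94 (CHIR) and 46 (CHIR+SB).

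Relative to IgG, the members were not weaker than their list as a whole. The median ratio of β-catenin to IgG signal was 4.81 at RPMI members against 4.28 over the list, 5.44 against 4.66 in CHIR, and 4.82 against 4.29 in CHIR+SB. The ratio of summed signals showed the same order, with 4.75 against 4.51, 5.29 against 4.92, and 4.68 against 4.40. Other classes reached medians of up to 4.65 (RPMI), 4.90 (CHIR) and 4.29 (CHIR+SB). Peaks within 1 kb of a TSS had 4.09, 4.13 and 3.74. By summed signals RPMI peaks within the gene stood above the members, at 5.11. The member medians rest on few IgG reads, and with 1 read added to both counts they were 3.84, 3.95 and 4.29. No such value is given for the whole lists. Members were narrower than the list as a whole in all 3 conditions. Their median width was 172.5 bp against 287.5 bp in RPMI, 345 bp against 368 bp in CHIR, and 207 bp against 260 bp in CHIR+SB. This was not particular to them. Downstream peaks with the TSS beyond 50 kb had medians of 150, 328 and 233 bp in RPMI, CHIR and CHIR+SB. Peaks within 1 kb of a TSS had 368, 423.5 and 358.5 bp.

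Few RPMI members were found again after treatment. Of the 18, 4 shared at least 1 bp with a CHIR peak (22.2%, 6.41 to 47.6), against 69.6% of all RPMI peaks. With CHIR+SB 5 overlapped (27.8%, 9.69 to 53.5), against 61.5% of all RPMI peaks. The whole-list values are carried by peaks within 1 kb of a TSS, 93.0% of which overlapped a CHIR peak. All RPMI members had 15 to 20 reads, and among other RPMI peaks in that range 62 of 120 overlapped a CHIR peak (51.7%, 42.4 to 60.9). Those within 1 kb of a TSS accounted for 44 of these 62. The other peaks of that read range that were neither far upstream nor within 1 kb of a TSS overlapped CHIR in 18 of 70 cases (25.7%, 16.0 to 37.6), and this interval covers the members' value. With CHIR+SB the same class gave 13 of 70 (18.6%, 10.3 to 29.7). Within that class, peaks downstream of the gene with the TSS beyond 50 kb overlapped CHIR in 9 of 20 cases (45%, 23.1 to 68.5) and CHIR+SB in 7 of 20 (35%, 15.4 to 59.2). Both shares were above those of the members, with overlapping intervals. This read range was chosen after the data were seen.

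**Figure D1:**
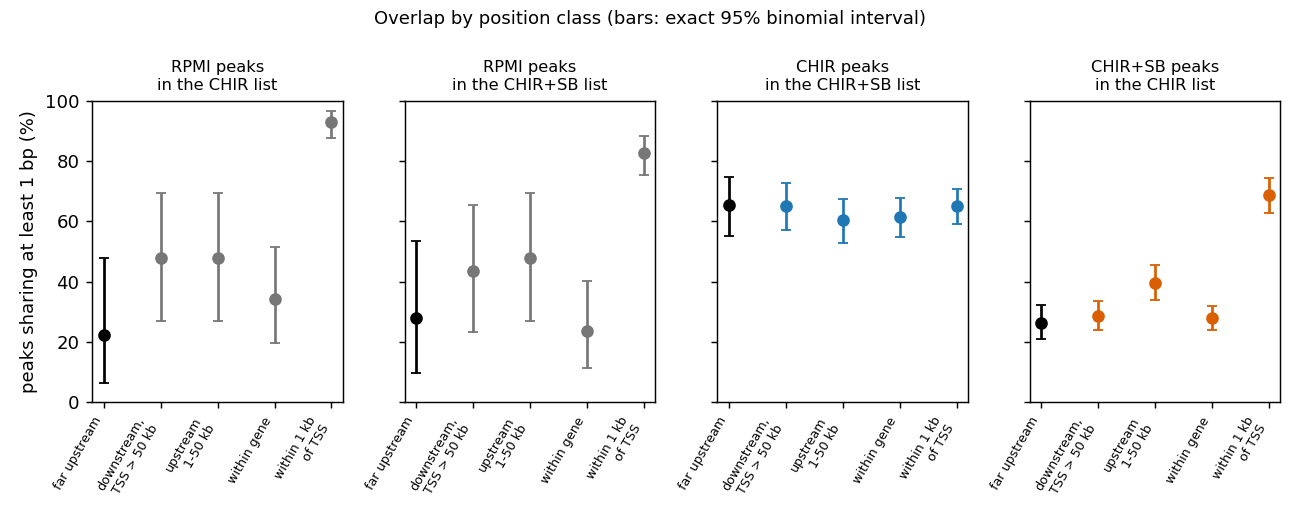
Share of peaks (%) that shared at least 1 bp with a peak of another list, by position class; points are shares, bars exact 95% binomial intervals, and the far upstream class is in black. Far upstream peaks of CHIR were found in CHIR+SB about as often as other classes (65.3%), whereas in the other panels the class within 1 kb of the TSS stood highest.

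Between the inhibitor conditions the far upstream peaks were shared much like the others, when counted from CHIR. Of 101 CHIR members, 66 overlapped a CHIR+SB peak (65.3%, 55.2 to 74.5), against 63.3% of all CHIR peaks. The class nearest to it in kind, peaks downstream of the gene with the TSS beyond 50 kb, gave 101 of 155 (65.2%), and peaks within 1 kb of a TSS gave 65.0%. Counted from the longer list, 66 of 251 CHIR+SB members overlapped a CHIR peak (26.3%, 21.0 to 32.2), against 36.6% of all CHIR+SB peaks. With the common minimum signal of 9.61 this share was 53.3% (49 of 92). No value over all peaks is given at that minimum, so 53.3% is not comparable with 36.6%. Without the minimum, downstream peaks with the TSS beyond 50 kb gave 102 of 359 (28.4%), and peaks within 1 kb of a TSS gave 68.7%. RPMI peaks were met by 4 of 101 CHIR members (3.96%, with 17% over the list) and by 5 of 251 CHIR+SB members (1.99%, with 8.77% over the list). The latter share was 5.43% (5 of 92) at the common minimum, again without a matching value over the list. Every overlapping partner of a member was itself a far upstream peak assigned to the same gene.

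Sharing rose with signal. Divided into 4 signal bins of the whole CHIR list, from lowest to highest, the members overlapped CHIR+SB in 8 of 23, 18 of 32, 25 of 31 and 15 of 15 cases. In the bins of the CHIR+SB list they overlapped CHIR in 0 of 77, 4 of 61, 26 of 70 and 36 of 43 cases. Other peaks rose in the same order, with 30%, 49.8%, 73.5% and 92.2% of CHIR peaks and 5.52%, 17.0%, 36.0% and 84.3% of CHIR+SB peaks overlapping. CHIR members shared with CHIR+SB had a median signal of 12.3 and a median width of 394 bp, against 9.98 and 248 bp for the 35 not shared. In CHIR+SB the shared members had a median signal of 14.1 and a width of 455 bp, against 8.44 and 162 bp for the 185 not shared. The shared members also lay nearer to the gene, at a median of 126 kb, against 187 kb for unshared CHIR and 179 kb for unshared CHIR+SB members. The 126 kb holds in both lists because the same 66 pairs are counted from each side. No such split by distance is given for other classes, and the difference was not tested.

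**Figure D2:**
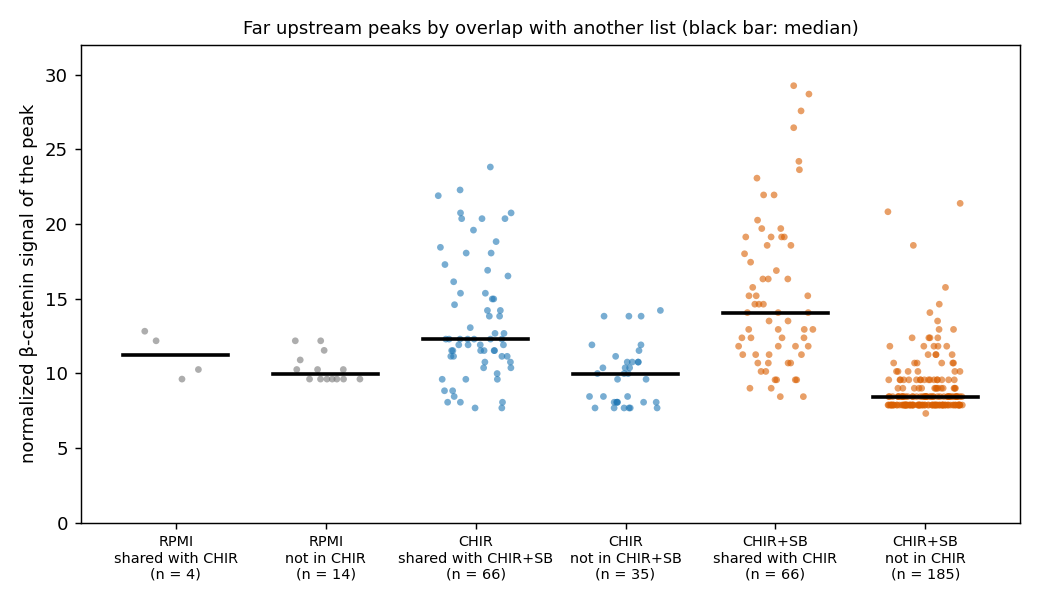
Normalized β-catenin signal (count times the authors' factor) of each far upstream peak, split by overlap with another list; each point is 1 peak and black bars are medians. Unshared CHIR+SB peaks crowd near their median of 8.44, while shared ones reach 29.3.

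Most unshared members were far from any peak of the other list. The 35 unshared CHIR members had a median gap of 356 kb to the closest CHIR+SB peak, and 3 of them had one within 1 kb. The 185 unshared CHIR+SB members had a median gap of 1032 kb to the closest CHIR peak, and 5 had one within 1 kb. Among these close neighbours was SOX9, the transcription factor of cartilage, testis and neural crest development, with a CHIR peak (chr17:70026621-70026744, hg19, 20 reads) lying 22 bp from a CHIR+SB peak (chr17:70026307-70026599, 18 reads), at 90.5 kb and 90.7 kb from the TSS. Both were counted as unshared, and SOX9 was named after its values were seen. The others were CTSO (149 bp apart), a second peak near MIR4643 (29 bp apart) and, from CHIR+SB alone, FNDC3A (929 bp) and KRABD4 (313 bp).

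Spacing is given for the members only, without values for the whole lists or other classes, so it cannot be called particular to them. The lists also differ in length (260, 1053 and 1813 peaks). The closest other peak of the same list was a median of 3251 kb away (RPMI), 808 kb (CHIR) and 386 kb (CHIR+SB). Within 100 kb of another peak lay 0 of 18 RPMI, 21 of 101 CHIR (20.8%) and 49 of 251 CHIR+SB members (19.5%). They occupied 9 chromosomes (RPMI), 20 (CHIR) and 22 (CHIR+SB).

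Regions present in all 3 lists were few, and 2 of the 4 had more signal in both inhibitor libraries beyond counting error. The peak 246 kb upstream of PTBP2, a neural splicing regulator, had 16 reads in RPMI (chr1:96941188-96941342), 51 in CHIR and 47 in CHIR+SB. Its normalized signal was 10.3, 19.6 and 26.4, a ratio to RPMI of 1.91 in CHIR (1.07 to 3.59) and 2.58 in CHIR+SB (1.44 to 4.87). The peak 223 kb from MIR4643, a microRNA gene, had 15 reads in RPMI (chr6:92008395-92008522), 62 in CHIR and 51 in CHIR+SB. Its signal was 9.61, 23.8 and 28.7, with ratios to RPMI of 2.48 (1.39 to 4.69) and 2.98 (1.65 to 5.72). At both regions RPMI was the lowest of the 3 libraries. Both peaks were also wider after treatment. The PTBP2 peak measured 154, 571 and 679 bp and the MIR4643 peak 127, 619 and 683 bp. Per kilobase of peak the signal at PTBP2 was highest in RPMI, at 66.6, against 34.3 in CHIR and 38.9 in CHIR+SB, and at MIR4643 it was 75.7, 38.5 and 42.0. Summed signal was thus higher over wider peaks, and the part of the peak boundaries in that difference was not tested.

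The other RPMI regions that recurred stayed within counting error. SYT1, which encodes the calcium sensor of synaptic vesicles, had a peak 212 kb upstream (chr12:79045673-79045990 in RPMI) with 20, 44 and 30 reads, giving signals of 12.8, 16.9 and 16.9. MMP16, which encodes a membrane-anchored metalloproteinase, had 19, 22 and 27 reads and signals of 12.2, 8.45 and 15.2. CHIR was the lowest of its 3 libraries, with overlapping intervals. TBCA, a tubulin folding cofactor, had a peak in RPMI (16 reads, signal 10.3) and in CHIR+SB (22 reads, signal 12.4) and none in CHIR. Over all one-to-one pairs of RPMI and CHIR peaks, 16.1% had a higher CHIR signal with an interval excluding a ratio of 1 and 0.575% a lower one. For CHIR+SB against RPMI these were 8.55% and 2.63%. Against that background 2 of 4 far upstream pairs were higher in CHIR and 2 of 5 in CHIR+SB, the same 2 regions, and none was lower. So few pairs allow no statement about the class.

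**Figure D3:**
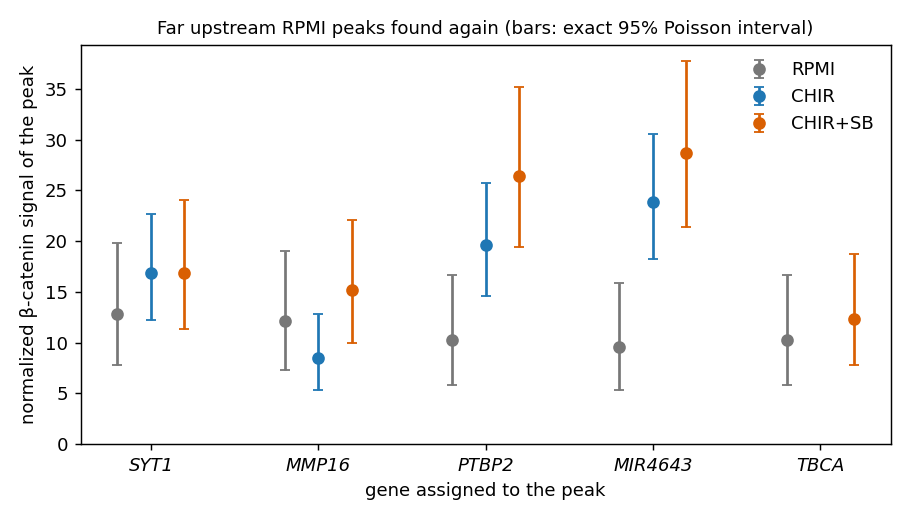
Normalized β-catenin signal in each library at the 5 far upstream RPMI regions that recurred in CHIR+SB, by assigned gene; points are 1 library each, bars exact 95% Poisson intervals. PTBP2 and MIR4643 are lowest in RPMI, where the MIR4643 bar lies below both others and the PTBP2 bar overlaps that of CHIR; the bars of SYT1, MMP16 and TBCA overlap, and TBCA has no CHIR peak.

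The remaining 13 RPMI members were found in neither inhibitor list. They were assigned to EDIL3, POU3F2, RBPJ, FRG1, XIRP2, PTPRD, ACTR3BP5, SLC16A7, PABPC1P2, TNP1, INTU, ZNF608 and RORB. POU3F2, a neural POU-domain factor, had 19 reads over 3 IgG reads, and RBPJ, the DNA-binding effector of Notch signalling, had 18 over 6. EDIL3, FRG1, RORB and ZNF608 had far upstream peaks at other places in at least 1 inhibitor list, without overlap. The ZNF608 peak in RPMI, 394 kb upstream, had 15 reads over 5 IgG reads.

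The strongest members after CHIR were assigned to genes of varied function, and all 10 were found again in CHIR+SB. They were MIR4643 (62 reads in CHIR), KBTBD8 (58), SEMA6A (57), TENM2 (54), LOC157273 (54), NRXN3 (53), NKD1 (53), EGFLAM (53), PTBP2 (51) and PARP11 (49). KBTBD8 encodes a ubiquitin ligase adaptor of neural crest specification, and its peak, 200 kb upstream, had a signal of 22.3 in CHIR and 21.9 in CHIR+SB. SEMA6A, a semaphorin of axon guidance, had a peak 290 kb upstream with 57 CHIR reads over 2 IgG reads and 33 CHIR+SB reads over 14. Its ratio to IgG was 15.5 in CHIR and 3.37 in CHIR+SB, while its β-catenin signal was 21.9 and 18.6. NRXN3, a presynaptic adhesion gene, had 53 and 42 reads 293 kb upstream, with signals of 20.4 and 23.6.

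In CHIR+SB the strongest members were LDB2 (52 reads), MIR4643 (51), TENM2 (49), PTBP2 (47), LCORL (43), NRXN3 (42), FNDC3A (41), RGMA (39), KBTBD8 (39) and POM121L12 (38). Of these, POM121L12, 452 kb from its peak, had no overlapping CHIR peak, and the other 9 did. Its CHIR+SB signal of 21.4 was the highest among unshared members, over 11 IgG reads. The next were MSR1, a macrophage scavenger receptor gene (37 reads, 91.6 kb upstream), and ZNF608 (33 reads, 235 kb). The highest CHIR members without an overlapping CHIR+SB peak were FICD (37 reads, signal 14.2), PTER (36), FAT3 (36), MIR1297 (36), ANO1 (31) and LINC00251 (31). MSR1 and these CHIR members were named after their values were seen.

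Where a far upstream CHIR peak overlapped exactly 1 CHIR+SB peak, the signals were close. The median CHIR+SB to CHIR ratio of the 66 pairs was 1.13 (0.995 to 1.21), with 40 ratios above 1 and 26 below, against a median of 1.00 over all 642 pairs. Downstream pairs with the TSS beyond 50 kb had a median of 1.09 (100 pairs) and pairs within 1 kb of a TSS 0.874 (172 pairs). The median width ratio of the far upstream pairs was 1.12, and per base pair the signal ratio was 1.04. The interval of the ratio excluded 1 at 6 far upstream pairs with higher CHIR+SB signal, against 6.7% of all pairs, and at 1 with lower signal, against 4.21%. The 7 pairs are 10.6% of 66, near the 10.9% of all pairs (70 of 642).

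The 6 higher pairs were all wider in CHIR+SB. The peak 1210 kb from TENM2, a teneurin of neuronal adhesion, went from 20 reads in CHIR to 35 in CHIR+SB, a signal ratio of 2.56 (1.44 to 4.69) with a width ratio of 4.04. Of 2 neighbouring LDB2 peaks, the one 96.9 kb upstream went from 31 to 52 reads, a ratio of 2.46 (1.55 to 3.97). The one at 95.8 kb had 32 and 23 reads and a ratio of 1.05 (0.588 to 1.86). LDB2 encodes a LIM-domain binding co-factor. LCORL, 670 kb from its peak, had 28 and 43 reads and a ratio of 2.25 (1.37 to 3.76), and its IgG count went from 0 to 12. CSTF2T had 23 and 32 reads and a ratio of 2.04 (1.16 to 3.65). ACVR1, an activin and BMP type I receptor gene, had 29 and 34 reads 57.2 kb upstream and a ratio of 1.72 (1.02 to 2.92), with IgG counts of 1 and 15. NRIP1, a nuclear receptor co-repressor gene, had 30 and 35 reads and a ratio of 1.71 (1.02 to 2.88). The width ratios of the 6 ran from 1.48 to 5.14. Counted per base pair, 3 of the 66 pairs had an interval excluding 1, and all 3 were lower in CHIR+SB. They were CSTF2T, MMP16 and IMPG1, with signal ratios of 2.04, 1.80 and 1.46 and width ratios of 5.14, 3.74 and 3.68. Of the 6 pairs above, only CSTF2T was among them, and none stayed higher per base pair beyond counting error.

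The 1 lower pair was LOC157273, a long non-coding RNA gene, 60.5 kb from its peak. It fell from 54 reads in CHIR to 20 in CHIR+SB, a signal ratio of 0.543 (0.308 to 0.921), and the width ratio was 0.491. NKD1 had a similar ratio, 0.608, with an interval that included 1 (0.352 to 1.02).

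**Figure D4:**
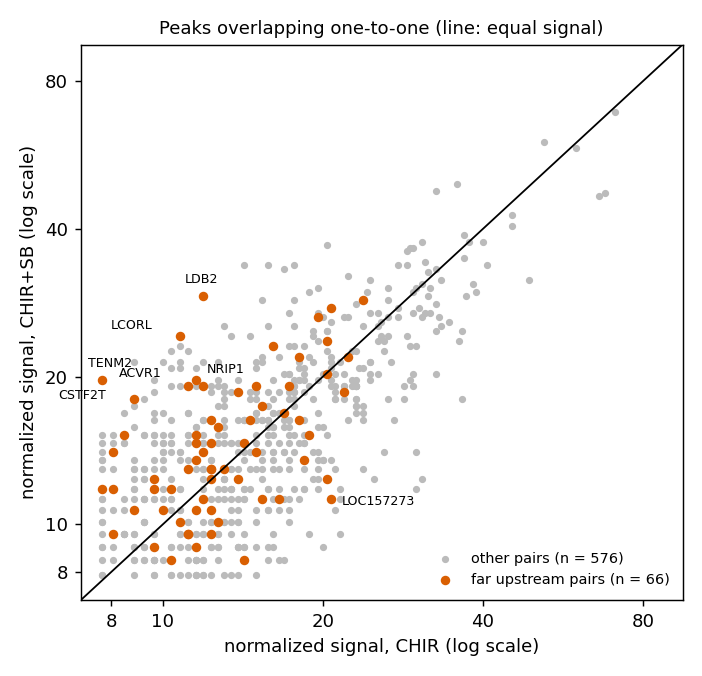
Normalized signal of peaks that overlapped one-to-one in CHIR (horizontal, log scale) and CHIR+SB (vertical, log scale); orange points are the 66 far upstream pairs, grey points the other 576, and the line marks equal signal. Named points are the 6 far upstream pairs with a higher and the 1 with a lower CHIR+SB signal beyond counting error; most orange points lie near the line.

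Genes of the fixed signalling and developmental lists carried far upstream peaks at shares above the background of protein-coding genes, a description with no test. The lists were written with earlier results of these data known, so the shares are no independent support for an excess. No such background is given for peaks at any distance, so the difference cannot be called particular to far upstream peaks. Of 430 genes in 12 lists, the number with such a peak was 1 (RPMI), 11 (CHIR) and 22 (CHIR+SB), and 26 had one in any list. Among all protein-coding genes the shares were 0.0748% (RPMI), 0.339% (CHIR) and 0.853% (CHIR+SB), below the 0.233%, 2.56% and 5.12% of the 430. The space between genes differs from gene to gene, and its part in these shares was not tested. In the Wnt list 24 of 62 genes had a CHIR peak at any distance, and 1 of them, NKD1, a far upstream one. NKD1 encodes a feedback inhibitor of the pathway. Its peak 80.0 kb upstream (chr16:50501933-50502541 in CHIR) had 53 reads over 6 IgG reads in CHIR and 22 over 10 in CHIR+SB. A second NKD1 peak lay 0.815 kb from the TSS, with 25 reads in CHIR. CHIR+SB added FZD8, a Wnt receptor gene, with 14 reads 547 kb upstream, and TLE4, a Groucho co-repressor of TCF proteins, with 15 reads 211 kb upstream. Both are near the lowest count of that list.

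Primitive streak and mesendoderm genes had no far upstream peak in RPMI or CHIR and 3 of 51 in CHIR+SB. EOMES, a T-box factor of early mesendoderm, had 21 reads over 6 IgG reads 91.6 kb upstream (chr3:27855130-27855541), beside a peak 6.36 kb upstream with 54 reads. CXCR4, a chemokine receptor gene of definitive endoderm, had 15 reads 392 kb upstream, and KDR, a VEGF receptor gene, 15 reads over 7 IgG reads at 71.2 kb. At any distance 21 of the 51 genes had a peak after CHIR, and 23 after CHIR+SB. EOMES is also the 1 member among 20 trophoblast genes.

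Of 33 pluripotency genes, JARID2, a Polycomb cofactor, had 28 reads over 2 IgG reads 207 kb upstream in CHIR. KLF4, a reprogramming factor, had 28 reads over 9 IgG reads 383 kb upstream in CHIR+SB (chr9:110634980-110635535). Neither had an overlapping peak in the other list. ID4, a BMP-induced inhibitor of helix-loop-helix factors, had 14 reads in CHIR+SB.

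Neurectoderm genes contributed 3 of 56 in each inhibitor list and POU3F2 in RPMI. SOX1, an early neural marker, had the same peak in both, 68.2 kb upstream (chr13:112653530-112653937 in CHIR), with 30 reads and 19, signals of 11.5 and 10.7. LHX5, a forebrain LIM-homeobox factor, had 29 reads at 116 kb in CHIR and 18 at 138 kb in CHIR+SB, without overlap. IRX3 had 22 reads in CHIR only and MEIS2 14 in CHIR+SB only. In the list of cell adhesion and guidance genes, 3 of 50 had a member in CHIR and 7 in CHIR+SB. FLRT2 (32 and 29 reads, 1569 kb upstream) and NRXN3 were shared. CDH8, CNTN5, LRRTM4, PCDH7 and SLIT2 had 14 to 16 reads in CHIR+SB. Among 32 FGF and ERK feedback genes SPRY2 was present in both and SPRED2 (14 reads) in CHIR+SB. MAP2, a neuronal microtubule gene in the list of differentiated cells, had 43 reads in CHIR and 20 in CHIR+SB, 60.2 kb upstream. None of the 39 HOX and 24 housekeeping genes had a far upstream peak in any of the 3 lists.

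Most assigned genes had a single far upstream peak, 84 of 91 in CHIR and 180 of 212 in CHIR+SB. RGMA, a repulsive guidance molecule and BMP co-receptor, had 4 in CHIR, at 153, 243, 273 and 388 kb with 28, 32, 47 and 21 reads. CHIR+SB had 3 RGMA peaks, at 191, 243 and 273 kb with 15, 22 and 39 reads. Those at 243 and 273 kb were shared, and the strongest in both was that at 273 kb. TENM2 had 3 in each list, of which those 960 kb (54 and 49 reads) and 1210 kb upstream (20 and 35 reads) were shared. ADGRL2, a latrophilin adhesion receptor, had 4 in CHIR+SB with 14 to 16 reads and none in CHIR. ZNF608, HS3ST5 and RIPK2 had 3 each in CHIR+SB and none in CHIR. In CHIR the unshared TENM2 peak, 915 kb upstream, had 21 reads, 1 more than the shared peak at 1210 kb. The ZNF608 peak with 33 reads was in CHIR+SB only.

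**Figure D5:**
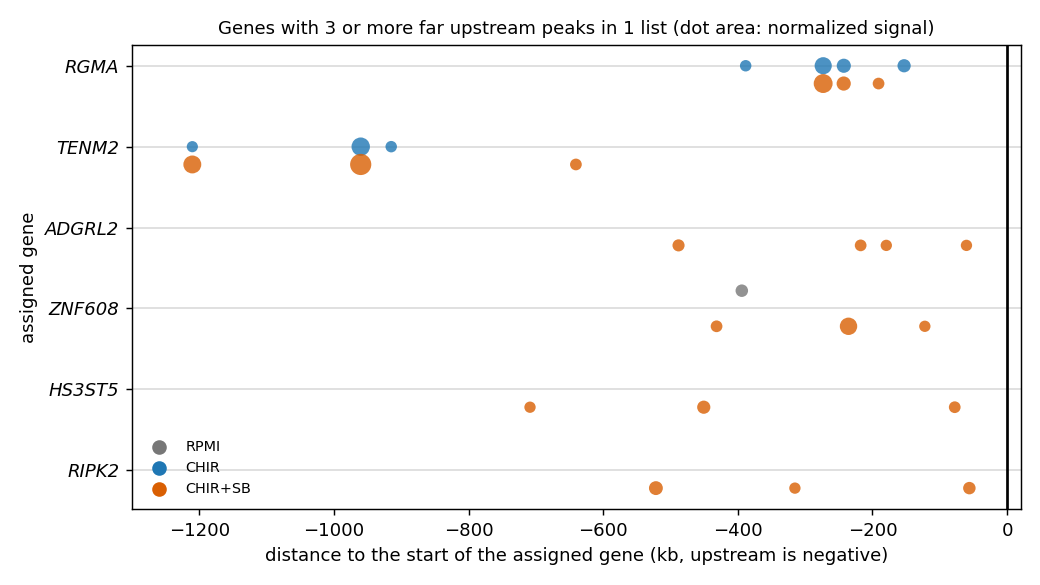
Distance of far upstream peaks from the TSS (kb, upstream negative) at the 6 genes with 3 or more of them in 1 list; dot area is proportional to normalized signal and colour gives the list. The 2 largest RGMA dots of each inhibitor list, at 243 and 273 kb, and the TENM2 dots at 960 and 1210 kb align between CHIR and CHIR+SB.

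Some assigned genes also had a peak within 50 kb of the TSS, 13 of 91 in CHIR (14.3%) and 23 of 212 in CHIR+SB (10.8%), and none of 18 in RPMI. No such share is given for genes of other peak classes, and the lists differ in length, so these shares have no background. PTCH1, the Hedgehog receptor gene, had a far peak at 65.0 kb with 37 reads in CHIR and 26 in CHIR+SB, beside a peak 3.91 kb upstream with 85 reads in CHIR. WLS, which encodes the carrier needed for Wnt secretion, had a far peak at 59.3 kb (32 and 23 reads) beside one at 44.1 kb (35 and 43 reads). TBL1XR1, a co-regulator that binds β-catenin, had a far peak at 87.2 kb with 25 reads in CHIR and 22 in CHIR+SB. These genes were named after their values were seen.

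CHIR and CHIR+SB had far upstream peaks at 71 genes in common. At 62 of these at least 1 pair of peaks overlapped, and at 9 (among them CTSO, EDIL3, FAT3, LHX5, LINC01116, PKIA, RALYL and SOX9) none did. Protein-coding genes were 15 of the 18 assigned genes (RPMI), 68 of 91 (CHIR) and 171 of 212 (CHIR+SB). Long non-coding RNA genes were 0, 10 and 18, and microRNA genes 1, 8 and 14.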

How the data were processed

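Peak lists of the 3 β-catenin libraries were used, and the IgG samples only through the reads counted beside each peak. The submitters' processing notes name Bowtie, and list mm9 and hg19 as builds. Coordinates of these human peaks are printed as the lists give them, as hg19. For the peak caller, its thresholds and the library totals, the entry is: not given in the sources used here. Per the file headers, the authors deposited read counts, normalized counts (signal), the ratio of β-catenin to IgG signal (10000 where IgG had no read) and −log10 p-values for each peak. Decimal commas were read as points. The deposited normalized signal equals the count times 1 factor per library, and relative depth is the inverse of these factors. Doses are left out, since their labelled unit was not checkable.

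Members were selected by position and distance. Overlap meant at least 1 shared bp. Shares carry exact 95% binomial (Clopper-Pearson) intervals, and signal ratios of one-to-one pairs carry exact 95% intervals from both read counts, scaled by the factors. The ratio compares 2 libraries, not conditions. The 95% interval of the median ratio comes from the ranked ratios of the pairs (order statistics) and treats pairs as units. Gene symbols were matched to the RefSeq table of GRCh38.p14, for names and gene types only, and 18, 97 and 247 of the peaks in RPMI, CHIR and CHIR+SB matched. The members and the 12 gene lists were chosen with earlier results of these data known. Peaks were named if shared by all 3 lists, among the 10 strongest of a list, assigned to a listed gene, 1 of 3 or more at a gene, among the extreme pairs, or farthest from or next to the distance limit. Any others are marked as chosen after their values were seen, or are given as all or most members of a count. The interval and overlap code was tested on simulated data. Python 3.11.15, pandas 2.3.3, numpy 2.4.6, scipy 1.17.1 and matplotlib 3.10.9 were used. No sequences are printed because no hg19 genome was used here. Some results are not reported here.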

Additional observations from a re-analysis of the deposited data

How the results depend on the processing

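Of 76 alternative values, 55 stayed within the main value's 95% interval (for a count, within 1.5 times) and 21 moved. Some of the 55 could not move, so this count is no measure of stability. The common minimum signal is the lowest of the RPMI list, and that list holds 260 peaks. The common minimum and the limit to the 260 highest peaks therefore left the RPMI members as they were. Asking for at least 1 IgG read removed no RPMI member. With a distance limit of 100 kb the CHIR list held 62 members (5.89%) and CHIR+SB 9.32%, and with 30 kb the shares were 13.1% and 17.1%. Among the 260 highest peaks of a list CHIR held 14 members (5.38%) and CHIR+SB 22 (8.46%). With the common minimum signal CHIR+SB held 92 members (10.5%), of which 5.43% overlapped RPMI and 53.3% CHIR (49 of 92). The median signal then became 12.3 (CHIR) and 12.9 (CHIR+SB), since this setting removes the lowest peaks. Per base pair 3 far upstream pairs had a ratio interval excluding 1, all 3 lower in CHIR+SB. With 1 read added to both counts the median signal over IgG was 3.95 (CHIR) and 4.29 (CHIR+SB). The genes of the fixed lists with a far upstream peak fell to 0 in RPMI above 100 kb, and to 7 (CHIR) and 9 (CHIR+SB) at the common minimum. No paired analysis was possible because each condition has 1 library. Counts of 13 to 20 reads leave wide intervals, and among the 66 far upstream pairs the smallest CHIR+SB to CHIR ratio above 1 whose interval excluded 1 was 1.71.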
